A study of Mus musculus with 30 samples.

Results

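The regions described here are stretches of open chromatin found in primitive type A spermatogonia (PriSG-A) and at none of 3 other stages of mouse spermatogenesis. They were chosen from 4 deposited ATAC-seq peak lists, 1 for each stage, on chromosomes 1 to 19. Peaks of the 4 lists that overlapped by at least 1 bp were joined into 113894 union regions, and a union region was kept where it held a PriSG-A peak and no peak of another list. This left 14671 PriSG-A-only regions, 12.9% of the union regions (95% Wilson interval 12.7 to 13.1) and 27.0% of the 54413 autosomal PriSG-A regions. Each is a single PriSG-A peak. The lists hold regions called open, so a region outside a list is one that was not called there, and its read level at that stage is not known.

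All samples came from testes of C57BL/6 mice with no engineered allele or drug treatment named in the labels. PriSG-A were taken at day 6 after birth (3 libraries), type A spermatogonia (SG-A) at day 8 (3 libraries), and pachytene spermatocytes (pacSC) and round spermatids (rST) from adults (2 libraries each). Testis tissue was digested with collagenase and DNase before the cells were isolated. The 20 Hi-C, ChIP-seq and input samples of the series are not analysed here. Every library of a stage names the same list, so there is no value per library. Replicate error cannot be measured, no p-value between stages was computed, and the intervals given cover counting error only.

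Spermatogonia are the mitotic germ cells of the testis. In the first week after birth the fetal germ cells resume division and give rise to primitive type A spermatogonia, a population that includes the founders of the adult stem cell pool. Over the following days many of these cells begin differentiation under retinoic acid, a step marked by the KIT receptor, and are then classed as type A spermatogonia. Pachytene spermatocytes are in meiotic prophase, when homologous chromosomes are paired, and round spermatids are the haploid cells that follow. Open chromatin, which the transposase Tn5 can cut in ATAC-seq, is found at promoters, enhancers and other sites where nucleosomes are displaced.

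The positions in the files go past the last RefSeq gene of GRCm38, the assembly known as mm10, on 10 of 19 autosomes, by up to 7.20 Mb (chromosome 7). The submitters' processing notes name mm10, but the listed span of chromosome 7 (149 Mb) is longer than that chromosome in mm10. The positions should therefore not be looked up in mm10, and which build they follow was treated as unsettled. Positions are printed as the files give them, counted from 1, with no build. No gene, promoter or sequence was assigned to a region, and the labelled cell type could not be checked against marker genes.

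PriSG-A-only regions were short and weakly called. Their width was 100 bp at the median (quartiles 85 and 171 bp, range 33 to 1280 bp), against 297 bp for the 39742 PriSG-A regions also listed elsewhere. A width of exactly 100 bp was the value of 1887 regions, or 12.9%, against 6.32% of the PriSG-A regions also listed elsewhere. A width of at most 100 bp was found in 58.8% of PriSG-A-only regions and in 20.1% of the others. These widths, and the strengths below, come from the list that chose the regions, so they describe the set and test nothing.

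Wider regions were no more frequent than in the comparison sets. Widths of at least 240 and under 400 bp were found in 1875 PriSG-A-only regions (12.8%), against 15.3% of all autosomal PriSG-A regions and 13.9% of regions listed only in SG-A. Only 26 PriSG-A-only regions reached 800 bp (0.177%). In the PriSG-A regions also listed elsewhere, 8335 of 39742 (21.0%) reached 800 bp. PriSG-A-only regions made up 27.0% of the autosomal PriSG-A list by number and 9.96% by length, with 2134 of 21424 kb.

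**Figure D1:**
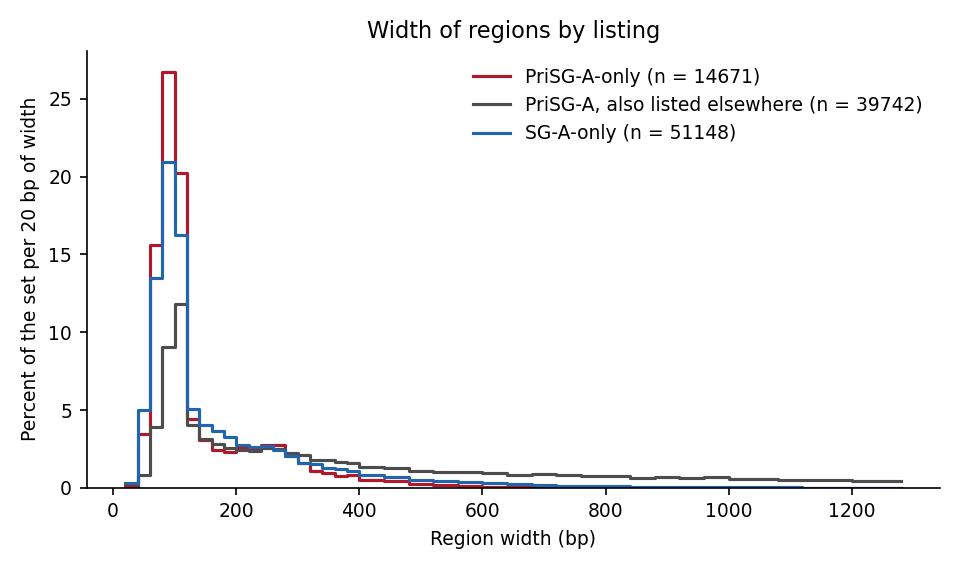
Distribution of region width in bp (x axis) as percent of each set per 20 bp of width (y axis) for PriSG-A-only regions, PriSG-A regions also listed elsewhere and SG-A-only regions, drawn for widths up to 1280 bp. PriSG-A-only regions are piled up around 100 bp, as are SG-A-only regions, while PriSG-A regions also listed elsewhere extend in a long flat tail.

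The authors' values for each peak gave the same picture. The signal value sums the signal over the bases of a peak, so that wide peaks score higher, and had a median of 39.0 in PriSG-A-only regions (quartiles 27.2 and 63.8, highest 1075), against 143 in the PriSG-A regions also listed elsewhere. Signal per base, which the deposited score expresses on a scale capped at 1000, had a median of 376 against 599. The cap was reached by 205 PriSG-A-only regions (1.40%) and by 26.5% of the others. The lower signal value was thus seen per base as well as over the whole region.

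The −log10 q, a measure of how far a peak stands above background, had a median of 2.10 in PriSG-A-only regions (quartiles 1.92 and 2.28, highest 4.94) and of 2.73 in the PriSG-A regions also listed elsewhere. No PriSG-A-only region reached a −log10 q of 5, which allows a share of up to 0.0204% (3 counts of 14671). In the whole autosomal PriSG-A list the share reaching it was 9.40%. The rule and this threshold use the same list, so nothing is read from that contrast. Many regions shared the same value: the 10 commonest −log10 q values covered 58.2% of PriSG-A-only regions and 28.6% of the others. The lowest −log10 q was 1.52 in the SG-A list and 1.55 in the pacSC and rST lists, each a single value. A −log10 q below 2.5 was found in 41.5% of the autosomal SG-A list and in 50.7% of the autosomal PriSG-A list. A given −log10 q need not mean the same in each list. The part of the calling cutoff of each list in the choice of regions was not tested.

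SG-A-only regions, the largest set confined to 1 list, were the closest comparison. They numbered 51148, or 59.6% of the autosomal SG-A list, and their median width was 104 bp. Their median signal value was 54.3 and their median −log10 q 2.39. Of these, 434 (0.849%) had a −log10 q of 5 or more, where the whole autosomal SG-A list had 18.2%. Both sets were therefore narrow and weak within their own lists. A −log10 q of 5 or more occurred only in the SG-A set, and nothing is read from that, since the rule and the threshold use the same lists. The read depth of each stage is unknown, and its part in these differences was not tested.

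The share of PriSG-A regions that were listed nowhere else went down with each step in strength. It was 59.3% (95% interval 56.9 to 61.7) in the weakest of 9 bins of −log10 q, 20.7% (19.9 to 21.6) between 2.5 and 3, and 8.19% (7.47 to 8.98) between 3 and 3.5. Between 4 and 5 it was 0.396% (0.247 to 0.633), with 17 of 4293 regions. The share also declined from bin to bin in SG-A, from a higher start and more slowly at first. Between 2.5 and 3, 74.0% of SG-A regions were SG-A-only, and between 4 and 5 the share was 32.4% (31.2 to 33.6). Within each of the 9 bins an SG-A region was thus listed alone more often than a PriSG-A region. The SG-A list is longer (85773 against 54413 regions), which leaves more of its regions without a possible partner. With depth unknown, a given −log10 q need not mean the same in both lists. The part of either in this difference was not tested. In PriSG-A the share also fell with width. It was 60.0% under 80 bp, 22.6% from 240 to 400 bp and 0.365% from 800 to 1600 bp. The rule counts any overlap of at least 1 bp, which a wide region meets more easily. The parts of width and of strength in the decline were not tested.

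**Figure D2:**
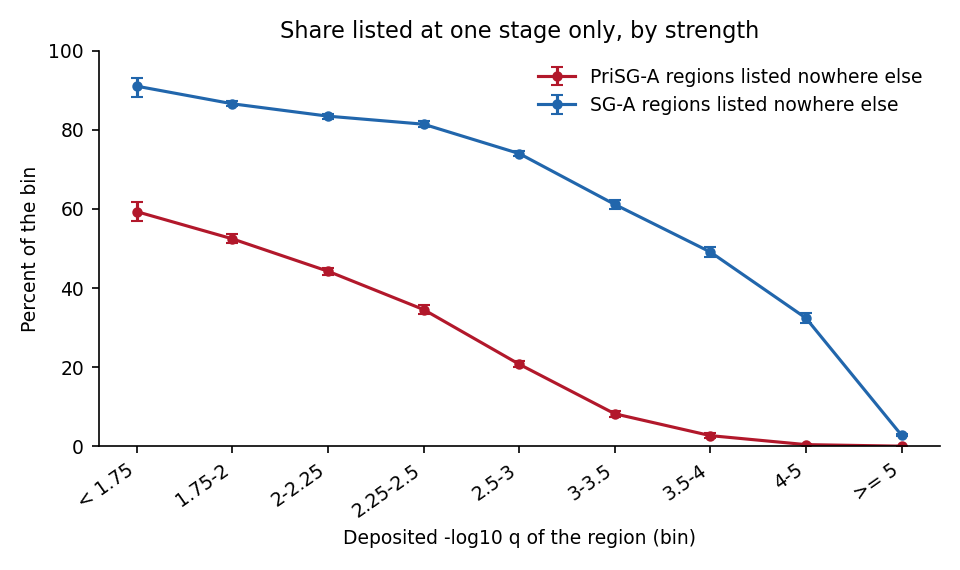
Percent of regions listed at 1 stage only (y axis) by bin of the deposited −log10 q (x axis), for the PriSG-A and the SG-A list; bars are 95% Wilson intervals for counting error. The PriSG-A curve declines from 59.3% to 0% and stays below the SG-A curve, which declines from 91.0% to 2.78%.

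A few PriSG-A-only regions stood out from the weak majority. The first by signal value was the region from 7117425 to 7118122 on chromosome 10, with a value of 1075, a −log10 q of 4.50 and a width of 698 bp. It ranked 6976th in the autosomal PriSG-A list by signal value, and the nearest SG-A region was 6503 bp away. The second, from 42018473 to 42019459 on chromosome 3, had a signal value of 953, a −log10 q of 4.22 and a width of 987 bp. Its nearest SG-A, pacSC and rST regions were 27422, 22823 and 22807 bp away. Even the strongest PriSG-A-only regions thus fell well inside the list rather than at its head.

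The next 3 by signal value were wide regions at very different distances from SG-A regions. On chromosome 9, 35494234 to 35495302 had a signal value of 857 and lay 44653 bp from the nearest SG-A region, with another PriSG-A region 214 bp away. On chromosome 3, 91121349 to 91122628 (signal value 833) was the widest of all PriSG-A-only regions at 1280 bp. It lay 355 bp from an SG-A region, while the nearest pacSC and rST regions were 762023 and 762104 bp away. On chromosome 17, 18547207 to 18548216 (signal value 807, −log10 q 4.43) lay 270992 bp from the nearest SG-A region, and the nearest region of any other stage was a pacSC region at 44681 bp.

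The remaining 5 of the first 10 had signal values from 631 to 771. The first of these ran from 3085480 to 3086390 on chromosome 13. The next ran from 42894618 to 42895436 on chromosome 3, from 11065885 to 11066474 on chromosome 7, from 43733119 to 43733790 on chromosome 11 and from 15477227 to 15478019 on chromosome 4. The region on chromosome 3 was 175142 bp from the nearest SG-A region, and the region on chromosome 7 was 13568 bp away. Of these 10, only the region on chromosome 3 at 91121349 lay within 1 kb of an SG-A region.

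Ranked by −log10 q, the first region ran from 13133782 to 13134354 on chromosome 4 (4.94, with a signal value of 569 over 573 bp), 19461 bp from the nearest SG-A region. The next was on chromosome 1 at 27089392 to 27089893 (4.51), 17050 bp from SG-A and 119 bp from another PriSG-A region. The third and the fourth were the regions on chromosomes 10 and 17 already described, and the last of the 5 lay on chromosome 14 at 35704948 to 35705341 (4.39). Of the 5 widest regions, those on chromosome 7 at 24142204 to 24143438 (1235 bp) and on chromosome 13 at 12993451 to 12994527 (1077 bp) had lower −log10 q, at 3.51 and 2.80. Width and strength therefore did not always go together.

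A −log10 q of 4 or more was found in 17 PriSG-A-only regions, spread over 11 chromosomes. Their median width was 502 bp (275 to 1010), and their gap to the nearest SG-A region had a median of 27422 bp (159 to 270992). Of these, 12 lay 10 kb or more from any SG-A region and 3 lay within 1 kb. The 100 regions of highest signal value came from all 19 autosomes, and 76 of them lay 10 kb or more from SG-A, with 13 within 1 kb. Over all PriSG-A-only regions, 51.1% lay within 10 kb of SG-A. The rule removes every region that overlaps SG-A, strong ones included, so these distances are a description.

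At the border of the rule, membership turned on single bases. There were 18 PriSG-A-only regions that touched a region of another list without overlapping it, and 128 with a gap under 10 bp. Among those touching, the highest signal value was 75.1, for 89760317 to 89760573 on chromosome 18, beside a pacSC region. The next were 70.4, for 19716664 to 19716783 on chromosome 8, and 59.2, for 17880288 to 17880422 on chromosome 4, both beside an SG-A region. Just outside the rule, 150 PriSG-A regions overlapped another list by at most 10 bp. With an overlap of 1 bp, the highest signal value was 84.1, for 19900949 to 19901346 on chromosome 8. It was followed by 70.9, for 27293513 to 27293675 on chromosome 19, and 60.2, for 32973628 to 32973756 on chromosome 18. Signal values overlapped across the border, and −log10 q was 2.04 to 2.27 in the 3 regions inside and 2.42 to 2.53 in the 3 outside. These few regions were picked by signal value, and the whole sets overlapped in −log10 q. It was below 2.5 in 83.7% of PriSG-A-only regions and in 38.6% of the PriSG-A regions also listed elsewhere. The number of regions moved with the rule: it was 35120 where an overlap counted only if it covered 50% of both regions, and 9544 where a region within 1000 bp also counted. With all lists limited to a −log10 q of 5 or more, 40 regions were listed in PriSG-A alone, none of them among the 14671.

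PriSG-A-only regions lay at a wide range of distances from SG-A regions. A gap under 1 kb was found for 4858 (33.1%), one of 1 to 10 kb for 2636 (18.0%), one of 10 to 100 kb for 5899 (40.2%) and one of at least 100 kb for 1278 (8.71%). The median gap was 9196 bp. The share within 10 kb was 51.1%, and 12.5% when only SG-A regions with a −log10 q of 5 or more were counted. Between 100 and 200 bp the cumulative share went from 7.44% to 18.1%, and it then flattened to 36.8% at 2 kb before it climbed again. The 4 distance classes had a median width of 100 bp each and median −log10 q values from 2.04 to 2.10. A −log10 q of at least 3 was reached by 2.88% of regions under 1 kb from SG-A and by 4.38% of those at 100 kb or more.

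The SG-A regions beside the 4858 close PriSG-A-only regions were mixed in kind. For 2704 of these (55.7%, 95% interval 54.3 to 57.1) the nearest SG-A region itself overlapped a PriSG-A region. For the rest it had no PriSG-A counterpart. Over the whole autosomal SG-A list, at least 59.6% of regions had none, since that share was SG-A-only. That SG-A region had a −log10 q of at least 5 in 12.1% of cases (11.2 to 13.1), where 18.2% of all SG-A regions had one. Most close PriSG-A-only regions had an SG-A neighbour below that threshold, and most regions of the whole SG-A list lie below it too.

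The later stages were farther off. The median gap was 50590 bp to the nearest pacSC region and 232993 bp to the nearest rST region, and 168 PriSG-A-only regions (1.15%) lay within 1 kb of an rST region. These lists are shorter, at 32902 and 6233 autosomal regions, and longer gaps go with shorter lists. Within the PriSG-A list, 43.6% of PriSG-A-only regions had a neighbour under 1 kb away, against 56.0% of the PriSG-A regions also listed elsewhere. The largest gap of a PriSG-A-only region to the nearest region of any other list was 787091 bp, and 767 had a gap of 100 kb or more.

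**Figure D3:**
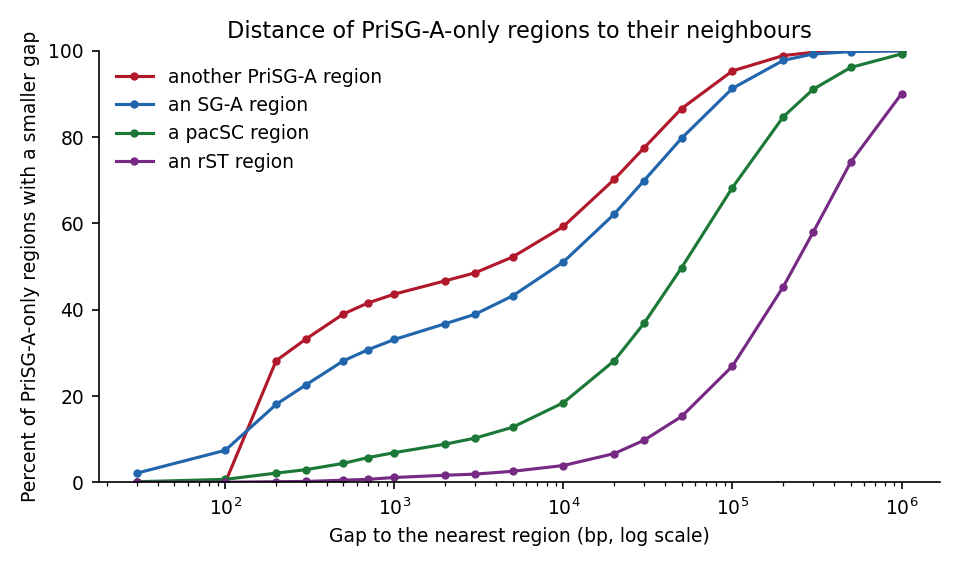
Cumulative percent of the 14671 PriSG-A-only regions (y axis) with a gap to the nearest region below the value on the x axis (bp, log scale), for another PriSG-A region, an SG-A, a pacSC and an rST region. The curves for PriSG-A and SG-A climb early, stand at 43.6% and 33.1% at 1 kb, flatten between 1 and 3 kb, and then climb again, while the pacSC and rST curves climb late.

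A small related group was off the SG-A list but listed again later. It held 716 PriSG-A regions that overlapped a pacSC or rST region and no SG-A region. Their median width was 106 bp, their median signal value 47.4 and their median −log10 q 2.14, and none reached a −log10 q of 5. In these values they lay closer to PriSG-A-only regions than to the PriSG-A regions also listed elsewhere as a whole.

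PriSG-A-only regions were unevenly shared among the chromosomes. They made up 33.3% of PriSG-A regions on chromosome 3 (95% interval 31.7 to 34.9) and 32.7% on chromosome 6 (31.1 to 34.3). On chromosome 11 the share was 15.8% (14.5 to 17.2), and on chromosome 19 it was 14.5% (12.7 to 16.5). The intervals of chromosomes 11 and 19 lay below those of all other autosomes. The autosomal background is 27.0%.

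A like order was found among weak regions. Among PriSG-A regions with a −log10 q below 2.5 the share was 51.6% (49.2 to 53.9) on chromosome 3, 29.5% (27.0 to 32.0) on chromosome 11 and 27.7% (24.3 to 31.3) on chromosome 19. The shares over all regions and over weak regions had a Pearson r of 0.991 and a Spearman rho of 0.967 over the 19 chromosomes, as a description of 2 measures that share regions. By density, PriSG-A-only regions ranged from 3.40 per Mb on chromosome 19 to 7.58 per Mb on chromosome 17, which was also the chromosome densest in PriSG-A regions of any kind (28.8 per Mb). Of the 699 PriSG-A-only regions on chromosome 17, 118 lay in a single window of 1 Mb, described below. Chromosome 11 had 3.74 PriSG-A-only regions per Mb, yet the highest density of SG-A-only regions (26.4 per Mb).

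The densities of PriSG-A-only and SG-A-only regions hardly followed each other, with a Pearson r of −0.153 and a Spearman rho of −0.0912 over the 19 chromosomes, which share the libraries. Against the share of PriSG-A regions that were PriSG-A-only, SG-A-only density had a Pearson r of −0.570 and a Spearman rho of −0.521, so that the share was lower on chromosomes denser in SG-A-only regions. Both measures come from the same lists and the same overlap rule, and what that adds to the relation was not tested. The median widths of PriSG-A-only regions were alike on all 19 chromosomes, from 98.5 to 100 bp. Many regions share a width of 100 bp, so such medians can hide differences in the rest of the distribution. Chromosomes thus differed in how many PriSG-A-only regions they carried and little in the median width of those regions.

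**Figure D4:**
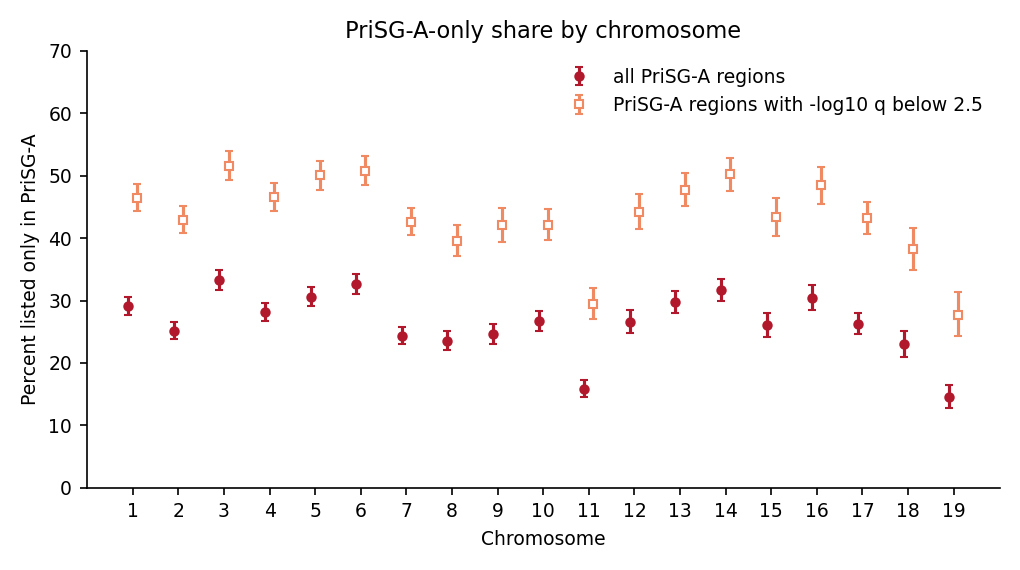
Percent of PriSG-A regions listed only in PriSG-A (y axis) by chromosome (x axis), over all PriSG-A regions (filled circles) and over those with a −log10 q below 2.5 (open squares); bars are 95% Wilson intervals for counting error. Chromosomes 11 and 19 are lowest in both series, at 15.8% and 14.5% over all regions.

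Along the chromosomes, PriSG-A-only regions leaned towards the centromeric end. Coordinates of mouse autosomes start at the centromere, and the listed span of each chromosome was split into its first 10 Mb (centromeric), its last 10 Mb (distal) and the rest. The centromeric zone held 10.2 PriSG-A-only regions per Mb and the rest 5.82 per Mb, a ratio of 1.76 (95% Poisson interval 1.67 to 1.84). In the distal zone the density was 4.68 per Mb, a ratio of 0.805 (0.752 to 0.862). Position was not part of the rule.

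A higher density at the centromeric end was not particular to these regions. Regions listed only in pacSC had a centromeric ratio of 2.18 (2.05 to 2.31), above that of PriSG-A-only regions, and a distal ratio of 8.56 (8.26 to 8.88). PriSG-A regions also listed elsewhere had a centromeric ratio of 1.23 (1.18 to 1.27) and a distal ratio of 1.32 (1.28 to 1.37). The centromeric ratio of PriSG-A-only regions was 1.43 times theirs (1.35 to 1.52), and the distal ratio 0.608 times theirs (0.564 to 0.656). Limited to a −log10 q below 2.5 in both sets, these values were 1.45 (1.34 to 1.57) and 0.572 (0.523 to 0.626). SG-A-only regions had a centromeric ratio of 0.882 (0.852 to 0.913) and a distal ratio of 1.34 (1.31 to 1.38). The 2 sets confined to 1 spermatogonial list therefore leaned to opposite ends of the chromosomes. These intervals count regions as independent, although PriSG-A-only regions were grouped. With each 100 kb window counted once, the PriSG-A-only ratios were 1.44 (1.35 to 1.54) and 0.862 (0.792 to 0.939). The SG-A-only ratios were not recomputed in this way.

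The lean was present on most chromosomes but not all. The centromeric ratio of PriSG-A-only regions was above 1 on 17 of 19 autosomes, from 0.580 on chromosome 17 to 3.57 on chromosome 9, and above that of the PriSG-A regions also listed elsewhere on 14 of 19. Their distal ratio was above that of the other PriSG-A regions on 1 of 19 autosomes, chromosome 18. With each span divided into 10 equal parts, 17.0% of PriSG-A-only regions lay in the first part and 7.45% in the last, against 11.4% and 12.0% of the PriSG-A regions also listed elsewhere.

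**Figure D5:**
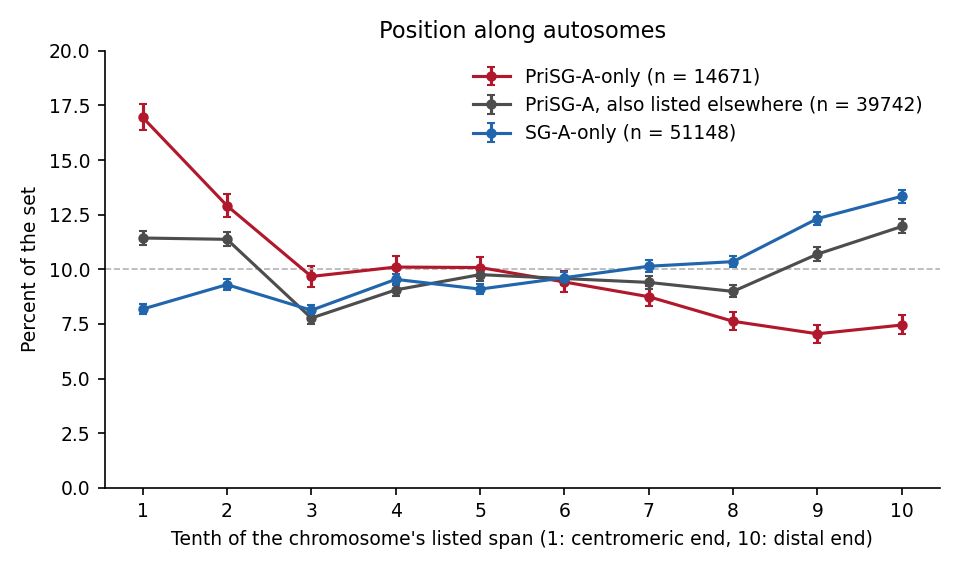
Percent of each set (y axis) in each of 10 equal parts of the listed span of its chromosome, from the centromeric to the distal end (x axis), over the 19 autosomes; bars are 95% Wilson intervals and the dashed line marks an even spread. PriSG-A-only regions go from 17.0% in the first part to 7.45% in the last, whereas SG-A-only regions go from 8.18% to 13.3%.

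PriSG-A-only regions were found nearly everywhere and were also grouped. Of 2426 windows of 1 Mb, 2294 held at least 1, with a median of 5 per occupied window. The 89 windows with 20 or more held 2414 regions (16.5%), and the 13 windows with 30 or more held 663 (4.52%). The regions lay in parts of the genome with fewer SG-A regions: the window around a PriSG-A-only region held a median of 28 SG-A regions, against 49 for the PriSG-A regions also listed elsewhere. The rule used the SG-A list, so this contrast is a description only.

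The densest window was on chromosome 17 at 13000001 to 14000000. It held 118 PriSG-A-only regions among 192 PriSG-A regions, beside 151 SG-A, 12 pacSC and 2 rST regions. The median gap between neighbouring PriSG-A-only regions there was 1074 bp, and 81 of the 118 lay within 1 kb of an SG-A region. Both spermatogonial lists were thus dense in this window, with regions that lay close together and often did not overlap.

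The next densest windows adjoined each other on chromosome 5. The window at 95000001 to 96000000 held 111 PriSG-A-only regions of 133 PriSG-A regions, with 57 SG-A regions and none of pacSC or rST. The window at 94000001 to 95000000 held 53 of 70, with 35 SG-A regions. Here the PriSG-A-only regions outnumbered SG-A regions, and 31 of the 111 lay within 1 kb of one. The highest −log10 q of the first window was 4.13. The last 2 of the densest 5 adjoined on chromosome 13, at 12000001 to 13000000 (52 of 114 PriSG-A regions, beside 125 SG-A regions) and at 13000001 to 14000000 (46 of 81, beside 71).

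Some windows held almost nothing but PriSG-A-only regions on the PriSG-A side. Over the 1189 windows with at least 20 PriSG-A regions the median share listed nowhere else was 20.4%, and 35 windows were above 75%. The highest share was 29 of 31 PriSG-A regions, in the window from 15000001 to 16000000 on chromosome 7, which held 8 SG-A regions. It was 24 of 26 from 19000001 to 20000000 on chromosome 6, beside 10 SG-A regions, and 21 of 23 from 60000001 to 61000000 on chromosome 4, beside 14. It was 18 of 20 from 130000001 to 131000000 on chromosome 6, beside 6, and 28 of 32 from 15000001 to 16000000 on chromosome 3, beside 15. In the window on chromosome 7 the PriSG-A-only regions were wider than usual, with a median of 253 bp.

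Read along the list, PriSG-A-only regions came singly and in unbroken runs. They formed 7551 runs in which no PriSG-A region listed elsewhere came between, and 4536 of these were single regions. Runs of at least 5 numbered 524 and held 26.3% of PriSG-A-only regions, and 6 runs had at least 20. The longest run, of 31 regions, spanned 1035 kb on chromosome 17 from 18331459 to 19366003. It held no SG-A region at all and 1 pacSC region, and it contained the region of signal value 807 described above.

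Other long runs were interspersed with SG-A regions that overlapped none of their members. A run of 30 on chromosome 6 (19264903 to 20221892) had 8 SG-A regions among them, and a run of 28 on chromosome 7 (15490835 to 16010544) had 5. A run of 24 on chromosome 5 (146115059 to 146957297) had 7. A run of 22 on chromosome 7 stretched over 3424 kb, from 20676782 to 24100657, and 1 of the same size on chromosome 6 over 705 kb. The highest −log10 q in these 5 runs was between 2.59 and 3.53, against 4.43 in the run on chromosome 17.

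Stretches with no SG-A region were not richer in PriSG-A-only regions as a class. The 1307 stretches of at least 250 kb between neighbouring SG-A regions made up 22.5% of the autosomal span and held 2652 PriSG-A-only regions (18.1%), at 4.89 per Mb against 6.42 per Mb elsewhere. Of these stretches, 406 held none, and the median was 1. The stretches also held 3073 of the 32902 pacSC regions and 587 of the 6233 rST regions, so the later lists were sparse there too. The stretch around the long run on chromosome 17, at 18276215 to 19543548, was the fullest with 31 regions over 1267 kb. The next was on chromosome 4 at 16311297 to 16915439, with 17 regions over 604 kb. A PriSG-A region in such a stretch is PriSG-A-only unless it overlaps a pacSC or rST region, so the counts here describe where PriSG-A regions lie.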

How the data were processed

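ATAC-seq peak lists of 4 stages were used. The PriSG-A list was assigned from the labels and by exclusion of the other 3, since its file name is garbled. Per the submitters' processing notes, the tools include Bowtie, SAMtools and Bowtie2 2.2.5, with no role stated. The sources used here do not name the peak caller, its settings or any shift for the Tn5 offset. The deposited signal value is an area over the peak. The deposited score equalled 1000 times signal over width, capped at 1000, for 100% of peaks (tolerance 1). The deposited −log10 q and the summit offset in bp (used only for an alternative) are also the authors'. The smallest gap within a list was 101 bp. Read depth is unknown.

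Overlaps, gaps and counts were computed with Python 3.11.15, pandas 2.3.3, NumPy 2.4.6 and SciPy 1.17.1, on functions tested on simulated intervals. Shares have 95% Wilson intervals, and density ratios 95% Poisson intervals on the log scale. Floors use 3 counts. Regions named are the 10 of highest signal value, the 5 of highest −log10 q, the 5 widest, 3 on each side of the rule's border, the 5 windows with most members and the 5 with the highest share. Runs and SG-A-free stretches were added later. The regions, bins and comparisons were chosen with earlier results of these data known.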

Additional observations from a re-analysis of the deposited data

Results flagged for a closer look

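Outside the autosomes, the same rule picked 566 PriSG-A-only regions on the sex chromosomes, which entered none of the comparisons above. They are given because they lie outside the main measurement, and the count tests nothing. They were 23.8% of the 2379 PriSG-A regions there (95% Wilson interval 22.1 to 25.5), against 27.0% on the autosomes (26.6 to 27.3). On X, 556 of 2273 PriSG-A regions were listed nowhere else, or 24.5% (22.7 to 26.3), with a median width of 100 bp and a highest −log10 q of 3.86. On Y the count was 10 of 106, or 9.43% (5.21 to 16.5), with a median width of 108 bp. None of the 566 reached a −log10 q of 5.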

How the results depend on the processing

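Among 38 values from alternative settings, 26 left the interval of the reported value (for counts, changed by over 1.5 times), and 12 did not. The centromeric ratio stayed above 1 and the distal ratio below 1 in every alternative tried for them. The number of PriSG-A-only regions was 14671 (12.9% of union regions, 27.0% of PriSG-A regions). It was 35120 (30.8%, 64.5%) when only a reciprocal overlap of 50% removed a region, 17233 (15.1%, 31.7%) when only a covered summit did, 10301 (9.04%, 18.9%) when a region within 500 bp also did, and 9544 (8.38%, 17.5%) within 1000 bp. With every list limited to a −log10 q of 5 or more it was 40 (0.247%, 0.782%), and with that threshold in PriSG-A alone 0 (0%, 0%). With the SG-A list limited to its 54413 regions of highest −log10 q it was 17683 (20.2%, 32.5%). The lists limited in this way hold fewer regions, either in PriSG-A, in the lists it is compared with, or in both. Causes of these changes were not tested. The centromeric ratio was 1.44 with each 100 kb window counted once, 1.66 without regions within 1000 bp of another list and 1.44 without windows of 20 or more, an alternative chosen after seeing the data. The distal ratio was 0.862, 0.674 and 0.863. The share within 10 kb of an SG-A region was 51.1%, and 12.5% with SG-A regions of −log10 q at least 5 and 53.7% without windows of 10 or more. No paired analysis was possible because the replicates of a stage share a single list, so leaving out a replicate was not possible either. Gene annotation, gene lists and sequence features were not run, since no annotation or genome of the files' build was used. Unknown depth limits every comparison between lists.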
